A study of Mus musculus with 6 samples.

Results

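The genes described here encode the antioxidant regulator NRF2, its inhibitor KEAP1 and a set of enzymes and a transporter of the glutathione and thioredoxin systems. They are Nfe2l2, Keap1, Hmox1, Nqo1, Gclc, Gclm, Txnrd1, Srxn1, Slc7a11 and Gsr, taken by symbol, and all 10 were found among the 23850 gene entries of each library. Levels were compared between 3 libraries treated with the GSK3 inhibitor CHIR99021 and 3 treated with the solvent DMSO. The cells were mouse B cells with a germinal centre phenotype made in culture: wild type follicular B cells of the C57BL/6J strain were grown for 4 days with IL-4 (1 ng/ml) on feeder cells displaying CD40L. They were then kept for 36 h with IL-21 (10 ng/ml), again on feeder cells, while CHIR99021 or DMSO was present. The labels give a dose of 3 uM for CHIR99021 and repeat that figure for DMSO. Both groups therefore share the genotype, the cytokines and the feeder cells, and differ in the compound. The series describes biological triplicates. The sources used here do not say whether each library came from its own mouse, nor how the B cells were purified from the feeder cells.

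NRF2 is a transcription factor that drives genes for detoxification and for the repair of oxidative damage. In unstressed cells KEAP1 holds NRF2 and presents it to a CUL3 ubiquitin ligase, which keeps the protein scarce, and electrophiles or oxidants that modify KEAP1 let NRF2 accumulate. A second route to degradation runs through GSK3, which phosphorylates a serine-containing motif of NRF2 that the ubiquitin ligase adaptor beta-TrCP then binds. Dividing lymphocytes use glutathione and thioredoxin to buffer peroxides and to supply reducing equivalents for nucleotide synthesis. Messenger RNA levels, as measured here, do not report the amount of NRF2 protein.

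The coding stretch of Nfe2l2 that holds the GSK3-dependent motif is shown because GSK3 is the kinase that CHIR99021 inhibits. It lies in exon 5 of 5 on the minus strand, at chr2:75676711-75676785 (GRCm38, the same assembly as mm10, GENCODE M21 transcript). The 15 bases in capitals encode the motif, whose phosphorylation was not measured here.
Nfe2l2 coding stretch: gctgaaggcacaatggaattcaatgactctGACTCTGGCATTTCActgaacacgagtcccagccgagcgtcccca

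Promoter windows of RefSeq (GRCm38.p6, 250 bases before to 50 after a gene start) were matched by symbol for 7 of the 10 genes, with 9 windows because Txnrd1 has several starts. Hmox1, Gclc and Gsr were not matched. Both strands were searched for the core of the antioxidant response element, TGACNNNGC, and for the stricter core of the element bound by NRF2 with a small MAF partner, TGANTCAGC. A run that matches both motifs is counted under each. TGACNNNGC was found in 4 of the 9 windows, those of Gclm, Nfe2l2, Srxn1 and 1 window of Txnrd1, and it was present in 12.4% of all 32851 windows. TGANTCAGC was found in the Srxn1 window only among these 9, against 1.19% of all windows. These matches describe the letters in the window and do not show binding. The 120 bases around each match upstream of a gene start are printed below, in the direction of the gene, with the match in capitals.
Gclm, chr3:122245367-122245486, plus strand: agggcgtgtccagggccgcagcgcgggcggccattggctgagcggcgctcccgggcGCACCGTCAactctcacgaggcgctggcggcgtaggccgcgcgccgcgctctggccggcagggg
Txnrd1, chr10:82859058-82859177, plus strand: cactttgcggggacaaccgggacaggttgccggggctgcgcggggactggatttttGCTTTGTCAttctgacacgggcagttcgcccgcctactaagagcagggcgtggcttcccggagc
Nfe2l2, chr2:75704794-75704913, minus strand: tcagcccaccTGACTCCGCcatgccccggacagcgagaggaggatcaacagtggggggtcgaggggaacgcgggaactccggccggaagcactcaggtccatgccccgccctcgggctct
Srxn1, chr2:152105404-152105523, plus strand: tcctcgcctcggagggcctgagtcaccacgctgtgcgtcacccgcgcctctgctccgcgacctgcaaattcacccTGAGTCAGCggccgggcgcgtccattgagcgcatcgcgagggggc
In Gclm and Txnrd1 the motif runs on the strand opposite to the gene, so the printed capitals are its reverse complement. In Nfe2l2 and Srxn1 it runs with the gene. The match of Srxn1 to TGACNNNGC begins 29 bases into the transcribed part and is not printed.

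Before the results, 1 difference between libraries bears on this set. Levels are in FPKM, fragments scaled for transcript length and library total. The summed FPKM of 9 markers of feeder-like cells (8 fibroblast genes and Cd40lg, the gene of the ligand that the feeder cells display) was 388, 132 and 75.2 in DMSO replicates 1, 2 and 3 and 303, 113 and 64.7 in CHIR99021 replicates 1, 2 and 3. Postn was at 0 in 5 of the 6 libraries, and the other 8 markers were above 0 in every library. Replicate 1 thus carried the most of this RNA in both groups, by 5.16 times over replicate 3 in DMSO and 4.68 times in CHIR99021. Within each replicate number the sum was lower in CHIR99021 than in DMSO. With the replicate number as a block in the fit, Col1a2, Col3a1, Fn1 and Thbs1 fell (limma, adjusted p of 0.00629 or less). Col1a1, Sparc and Lox did not pass there, and no marker of this list passed unpaired. The 6 B cell markers summed to 2579 to 3433 FPKM in DMSO and 1281 to 1522 in CHIR99021, and the 5 germinal centre markers to 128 to 134 and 115 to 123. All 6 B cell markers fell (limma, adjusted p of 0.0323 or less). The 5 plasma cell markers summed to 489 to 766 FPKM in DMSO and 471 to 588 in CHIR99021: Prdm1 and Irf4, regulators of plasma cell differentiation, rose by 1.25 and 1.40 on the log2 scale (limma, adjusted p = 0.00347 and 0.000431), and the other 3 did not pass. With the replicate block Xbp1 also rose (0.0172) and Igj, the J chain gene, fell (0.00134). No B cell, germinal centre or plasma cell marker was at 0 in any library. The B cell and plasma cell markers thus moved with the treatment in the same libraries as the genes below, and their part in those results was not tested. The 6 myeloid markers summed to 29.2, 25.3 and 32.9 FPKM in DMSO and to 20.1 or less in CHIR99021, and Cd14 was at 0 in every library. The 5 T cell markers summed to 13.3 to 15.3 and 11.1 to 13.7 FPKM, nearly all of it Lck, and Cd3e was at 0 throughout.

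With CHIR99021, 3 of the 9 genes that could be tested rose and 0 fell: Gclc, the catalytic subunit of the enzyme that makes the first intermediate of glutathione, Hmox1, the inducible haem oxygenase, and Gsr, glutathione reductase. Gclc moved most, at 2.24 times its DMSO level, followed by Hmox1 at 1.74 and Gsr at 1.39. Across all 10096 genes tested, 21.4% passed the same threshold, 8.13% as higher and 13.3% as lower. The median log2 change of the 9 genes was 0.39, beside -0.04 over all tested genes. Slc7a11 was the gene left without a test in this fit, since its mean stayed under 1 FPKM. The replicate number was also used as a block in the fit, which takes up differences shared by same-numbered libraries. It does not take up the lower sum of feeder-like markers in CHIR99021 within each replicate number. In the blocked fit 5 of the 9 rose (Gclm and Txnrd1 in addition) and Keap1 fell. In that fit 42.8% of all genes passed, 18.4% as higher and 24.4% as lower. Leaving out replicate 1 of both groups left Gclc and Hmox1 called among 8 genes tested, with 11.8% of all genes called, 4.39% as higher and 7.45% as lower. Of the 9 tested genes, 6 were higher in every replicate number and 1 was lower, beside 29.3% and 37.3% of all tested genes. In bulk RNA, fewer cells of a type and less RNA per cell cannot be told apart.

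**Figure D1:**
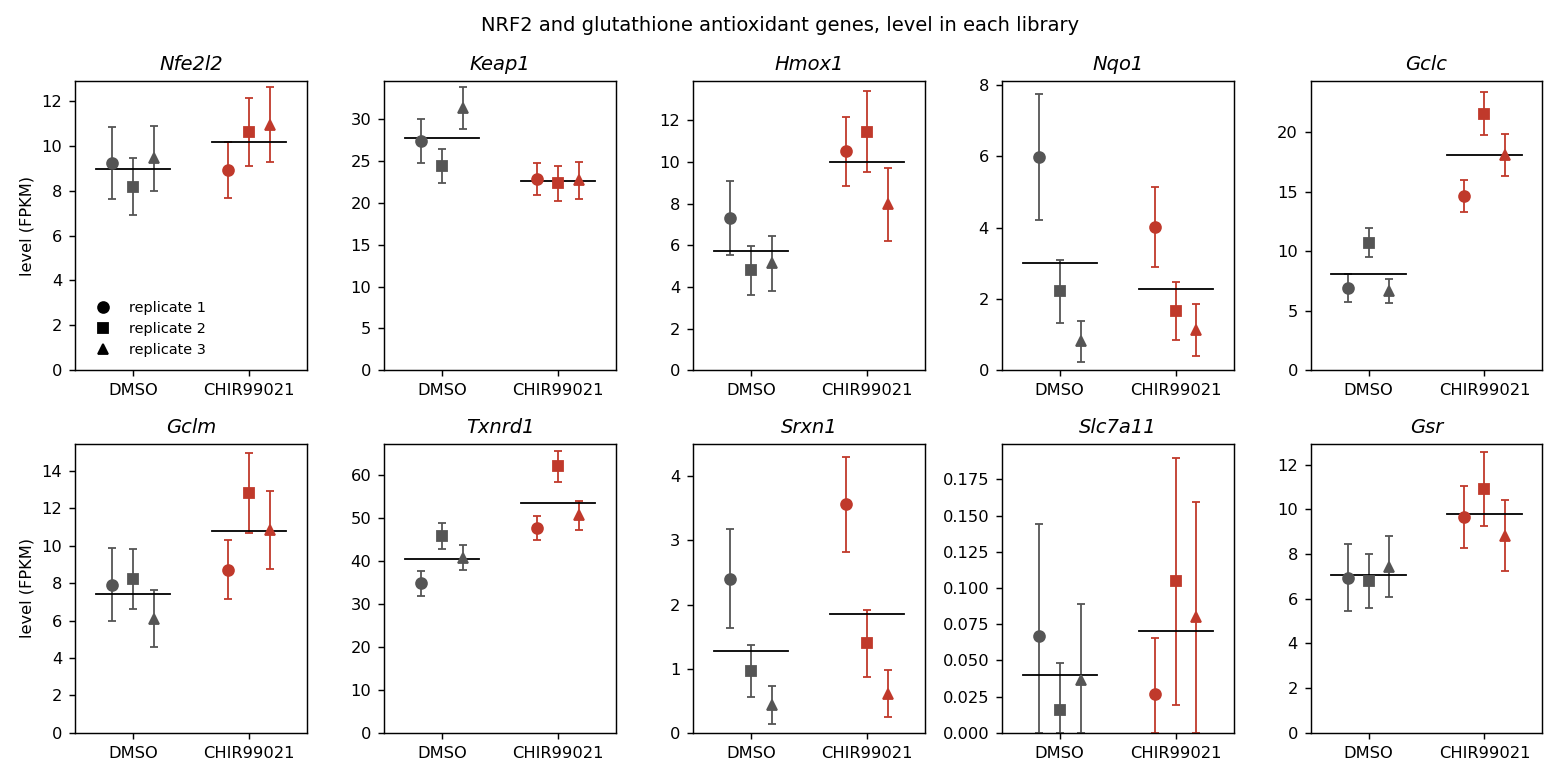
Level of each gene in FPKM (vertical axis, from 0) in the DMSO and CHIR99021 libraries, with symbols for replicates 1, 2 and 3, whiskers for the authors' Cufflinks confidence limits and lines for group means. The groups stand apart for Gclc, Hmox1, Gsr, Gclm, Txnrd1 and Keap1 and overlap for the other 4 genes. Of all tested genes, 40.1% have groups that stand apart, 17.0% as higher and 23.1% as lower. Nqo1 and Srxn1 are highest in replicate 1 of both groups.

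The regulator and its inhibitor came first. Nfe2l2 (chromosome 2, 75675519 to 75704641), which encodes NRF2, had 9.22, 8.18 and 9.44 FPKM in DMSO replicates 1, 2 and 3 and 8.92, 10.6 and 10.9 in CHIR99021. The groups overlapped, because CHIR99021 replicate 1 lay below 2 of the DMSO libraries. Its log2 change was 0.16 ± 0.12 (SE), with a 95% interval from -0.11 to 0.44 and an adjusted p of 0.369 by limma. A rise of the size seen for Gclc lies outside that interval.

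Keap1 (chromosome 9, 21229730 to 21239332) had 27.3, 24.4 and 31.3 FPKM in DMSO and 22.9, 22.3 and 22.7 in CHIR99021. Every CHIR99021 library lay below every DMSO library, and the 3 CHIR99021 values were close together (SD 0.288) while the DMSO values were spread (SD 3.49). The group means were 27.7 and 22.6 FPKM, 1.22-fold apart (log2 change -0.27 ± 0.10 SE). This did not pass over 6 unpaired libraries (limma, adjusted p = 0.104) but did with the replicate block (0.0327) and without DMSO replicate 2 (0.0453). Groups that do not overlap were common in this comparison, at 40.1% of tested genes, with 17.0% higher and 23.1% lower.

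The ratio of Nfe2l2 to Keap1 FPKM within a library does not depend on scaling between libraries. It was 0.337, 0.335 and 0.301 in DMSO and 0.390, 0.476 and 0.482 in CHIR99021, so the FPKM of Keap1, a level per transcript length, exceeded that of Nfe2l2 in all 6 libraries. The ratio was higher in each CHIR99021 library than in any DMSO library, by 0.46 on the log2 scale. An exact two-sided permutation test gave p = 0.1, the smallest that 3 libraries against 3 allow.

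Of the 9 tested genes, Gclc showed the largest log2 change. Gclc (chromosome 9, 77754535 to 77794489) had 6.88, 10.7 and 6.67 FPKM in DMSO and 14.7, 21.6 and 18.1 in CHIR99021. All CHIR99021 libraries were above all DMSO libraries, and the authors' confidence limits were also apart, with the highest DMSO limit at 11.9 and the lowest CHIR99021 limit at 13.3. No other gene of the 10 had limits apart in that way. The limits were compared for these 10 genes only, so the share of all tested genes with limits apart is not known.

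The mean level of Gclc was 8.09 ± 2.28 FPKM (SD, n = 3) in DMSO and 18.1 ± 3.46 in CHIR99021. The log2 change was 1.08 ± 0.20 (SE) with a limma adjusted p of 0.00844. Gclc was higher by 2.13, 2.01 and 2.71 times in replicate numbers 1, 2 and 3. Its call held in all 15 alternatives run, with adjusted p from 0.00032 to 0.0404.

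Gclm (chromosome 3, 122245557 to 122267215) encodes the modifier subunit, which binds GCLC and makes it more efficient. It had 7.92, 8.22 and 6.11 FPKM in DMSO and 8.72, 12.8 and 10.8 in CHIR99021. The groups did not overlap, but CHIR99021 replicate 1 lay only 1.10 times above DMSO replicate 1, against 1.56 and 1.78 times for replicates 2 and 3. The log2 change of 0.48 ± 0.16 (SE) did not pass (limma, adjusted p = 0.0761). It passed with the replicate block (0.0219), with upper-quartile scaling (0.0423), with quantile normalization (0.0314) and without CHIR99021 replicate 1 (0.0472).

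The mRNA levels of Gclm and Gclc were also compared as a ratio within each library. The proportion of the protein subunits was not measured. The Gclm to Gclc ratio of FPKM was 1.15, 0.767 and 0.916 in DMSO and 0.595, 0.594 and 0.599 in CHIR99021. The DMSO libraries were spread and the CHIR99021 libraries almost equal, and all 3 CHIR99021 ratios lay below the lowest DMSO ratio. The difference was -0.64 on the log2 scale (exact two-sided permutation p = 0.1, the smallest possible here). Without DMSO replicate 1, which had the highest ratio, the difference was -0.49.

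**Figure D2:**
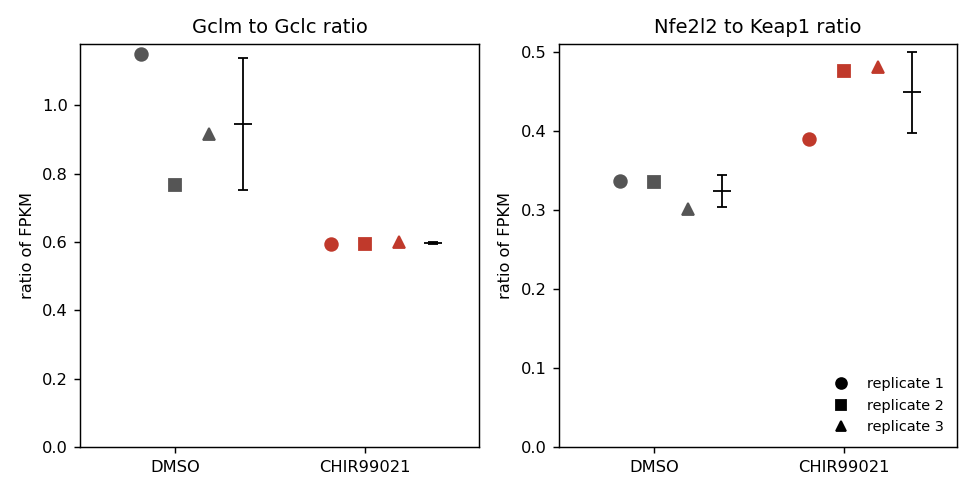
Ratio of Gclm to Gclc FPKM and of Nfe2l2 to Keap1 FPKM in each library (vertical axes, from 0), with symbols for replicates and bars for mean and SD over 3 libraries. The CHIR99021 libraries lie at 0.594 to 0.599 in the left panel, below all DMSO libraries, and at 0.390 to 0.482 in the right panel, above all DMSO libraries.

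Slc7a11 (chromosome 3, 50364936 to 50443613) encodes the light chain of the cystine importer that feeds glutathione synthesis in many cell types. It was near the floor of the measurement, at 0.0670, 0.0160 and 0.0368 FPKM in DMSO and 0.0270, 0.105 and 0.0796 in CHIR99021. The authors' lower confidence limit was 0 in 5 of these 6 libraries. Slc7a11 was fitted only with no filter on level, where Gclc alone of the 10 genes passed. Its heavy chain partner Slc3a2, which also serves other amino acid transporters, was abundant, at 46.9 ± 3.37 FPKM in DMSO and 57.1 ± 6.33 in CHIR99021 (limma, adjusted p = 0.1001, or 0.0417 with the replicate block). Slc3a2 is named here after its values were seen.

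Gsr (chromosome 8, 33653238 to 33698162) returns oxidised glutathione to its reduced form with NADPH. It had 6.94, 6.80 and 7.43 FPKM in DMSO and 9.67, 10.9 and 8.82 in CHIR99021. The DMSO libraries were tight and all CHIR99021 libraries lay above them. The log2 change was 0.42 ± 0.11 (SE) and the limma adjusted p 0.0365.

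The call of Gsr was lost when any 1 library was left out. Without DMSO replicates 1, 2 and 3 in turn the adjusted p was 0.0856, 0.0789 and 0.0791, and without CHIR99021 replicates 1, 2 and 3 it was 0.0875, 0.115 and 0.0632. The log2 change itself stayed between 0.35 and 0.49 over these 6 fits. Without replicate 1 of both groups the adjusted p was 0.152, and with no filter on level 0.0643.

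In the thioredoxin system, Txnrd1 (chromosome 10, 82833951 to 82897724), cytosolic thioredoxin reductase, was the most abundant gene of the 10. It had 34.9, 45.9 and 40.8 FPKM in DMSO and 47.7, 62.1 and 50.7 in CHIR99021. The groups did not overlap, though by little: the highest DMSO library (45.9) and the lowest CHIR99021 library (47.7) were close. Within replicate numbers 1, 2 and 3 the gene was higher by 1.37, 1.35 and 1.24 times.

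The log2 change of Txnrd1 was 0.39 ± 0.13 (SE). It did not pass unpaired (limma, adjusted p = 0.0760) and passed with the replicate block (0.00283), with upper-quartile scaling (0.0342), with quantile normalization (0.0477) and without DMSO replicate 2 (0.0484).

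Srxn1 (chromosome 2, 152105524 to 152111376) encodes sulfiredoxin, which restores over-oxidised peroxiredoxins. It had 2.41, 0.967 and 0.439 FPKM in DMSO and 3.56, 1.39 and 0.609 in CHIR99021. The groups overlapped, while each CHIR99021 library was above the DMSO library of the same number, by 1.48, 1.44 and 1.39 times. The limma adjusted p was 0.695, and 0.116 with the replicate block.

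Replicate 1 exceeded replicate 3 by 5.48 times in DMSO and 5.85 times in CHIR99021 for Srxn1, close to the 5.16 and 4.68 times of the fibroblast marker sum. For Nqo1 the same ratios were 7.36 and 3.58, whereas Gclc had 1.03 and 0.810 and Txnrd1 0.854 and 0.942. Hmox1 lay above 1 in both groups, at 1.42 and 1.32, and Gclm had 1.30 and 0.805. The ratios were 0.934 and 1.10 for Gsr, 0.873 and 1.01 for Keap1 and 0.977 and 0.816 for Nfe2l2. Of 10031 tested genes above 0 in every library, 173 (1.72%) had a ratio above 3 in both groups. The part of feeder cell RNA in the levels of Srxn1, Nqo1 and the other genes was not tested.

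**Figure D3:**
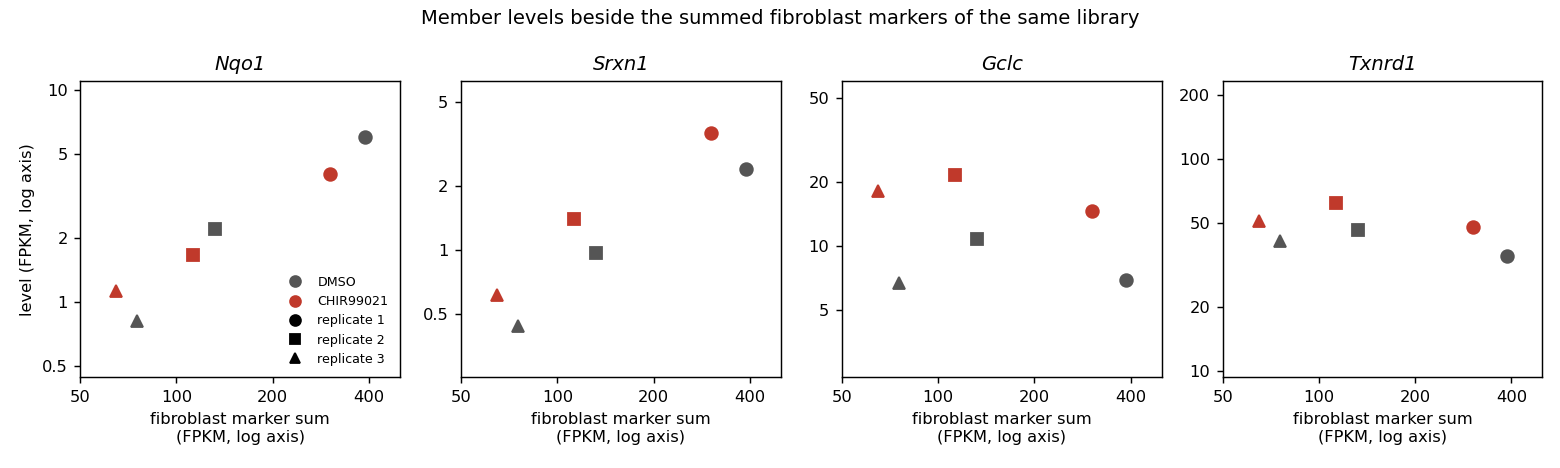
Level of 4 genes (vertical axes, FPKM, log scale spanning the same fold range in each panel) against the summed fibroblast markers of the same library (horizontal axes, FPKM, log scale), with colour for treatment and symbol for replicate. Nqo1 and Srxn1 are high where the marker sum is high, at 303 and 388, and Gclc and Txnrd1 separate by treatment at every marker level.

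Of the cytoprotective enzymes, Hmox1 (chromosome 8, 75093618 to 75100593), which breaks down haem, had 7.30, 4.80 and 5.14 FPKM in DMSO and 10.5, 11.5 and 7.98 in CHIR99021. The lowest CHIR99021 library lay just above the highest DMSO library. Within replicate numbers 1, 2 and 3 Hmox1 was higher by 1.44, 2.39 and 1.55 times. The log2 change was 0.71 ± 0.18 (SE) and the limma adjusted p 0.0304.

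The call of Hmox1 was lost without DMSO replicate 2 (adjusted p = 0.0731), DMSO replicate 3 (0.0979), CHIR99021 replicate 1 (0.0821) or CHIR99021 replicate 2 (0.0915), and with no filter on level (0.0708). Macrophages are a known site of high Hmox1 expression. The summed myeloid markers were lower in every CHIR99021 library than in any DMSO library. Most of this sum was Cd68, at 21.2, 19.3 and 26.2 FPKM in DMSO and 6.43, 16.6 and 11.4 in CHIR99021. Csf1r was at 0.0957 FPKM or less in every library, and Lyz2 did not pass (limma, adjusted p = 0.696). Itgam fell by 1.41 and Cd68 by 0.97 on the log2 scale (limma, adjusted p = 0.00264 and 0.0483), Cd14 was at 0 in all 6 libraries, and S100a8 was above 0 only in CHIR99021 replicates 1 and 2, at 1.69 and 2.08 FPKM. The part of myeloid RNA in the level of Hmox1 was not tested.

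Nqo1 (chromosome 8, 107388225 to 107403205), the quinone reductase that is a classic NRF2 target, had 5.98, 2.22 and 0.812 FPKM in DMSO and 4.02, 1.67 and 1.122 in CHIR99021. Replicate 1 was the highest library in both groups, and the groups overlapped. The log2 change was -0.17 with a 95% interval from -1.34 to 0.99 (limma, adjusted p = 0.851, or 0.420 with the replicate block). This interval includes falls larger than 1 and rises of nearly 1 on the log2 scale.

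**Figure D4:**
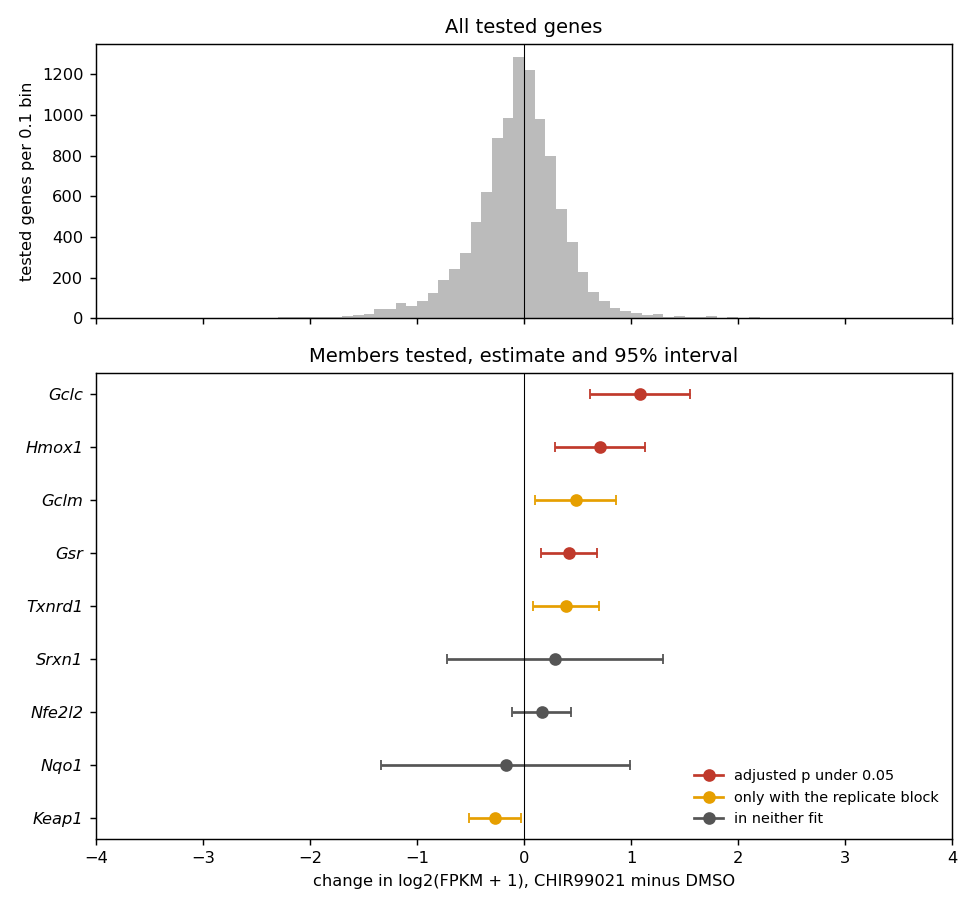
Upper panel, number of tested genes per 0.1 bin of the change in log2(FPKM + 1), CHIR99021 minus DMSO; lower panel, the same change for the 9 genes tested, with 95% intervals, in red where the adjusted p is under 0.05, orange where it is so only with the replicate block and grey otherwise. Gclc (1.08) and Hmox1 (0.71) lie in the upper part of the distribution over all genes, and the intervals of Srxn1 and Nqo1 are the widest.

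In level, the 10 genes ordered by mean FPKM in DMSO as Txnrd1 (40.5 ± 5.52), Keap1 (27.7 ± 3.49), Nfe2l2 (8.95 ± 0.672), Gclc (8.09 ± 2.28), Gclm (7.42 ± 1.15), Gsr (7.06 ± 0.330), Hmox1 (5.75 ± 1.36), Nqo1 (3.00 ± 2.67), Srxn1 (1.27 ± 1.02) and Slc7a11 (0.0399 ± 0.0256). Txnrd1 and Keap1 stood apart from each other and from the rest, while the libraries of Nfe2l2, Gclc, Gclm and Gsr overlapped between neighbours in this order, as did those of Gsr and Hmox1, Hmox1 and Nqo1, and Nqo1 and Srxn1. Slc7a11 was below Srxn1 in every library. In CHIR99021 Gclc (18.1 ± 3.46) moved to the third place, above Gclm (10.8 ± 2.04), Nfe2l2 (10.2 ± 1.08), Hmox1 (9.99 ± 1.80) and Gsr (9.80 ± 1.05), and these last 4 overlapped.

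Around these genes, 88 others of the pathway were listed in 5 groups, of which 83 could be tested. With CHIR99021 7 of them rose and 9 fell, or 17 and 17 with the replicate block, with a median log2 change of 0.04. The share of all tested genes that rose and fell was 8.13% and 13.3%, and with the block 18.4% and 24.4%, so the counts among these 83 genes were close to those of tested genes in general. The same blocked shares stand behind the blocked counts of each group below. Without DMSO replicate 3 the calls numbered 9 (13.2% of all genes called), without CHIR99021 replicate 3 they numbered 5 (10.6%), and without replicate 1 of both groups 10 (11.8%).

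Among the 12 genes for NRF2 partners, competitors and degradation, 3 fell and 0 rose (median log2 change -0.11), or 5 fell and 1 rose with the replicate block. Small MAF proteins pair with NRF2 on DNA, and 2 of the 3 small MAF genes fell. Maff had 12.6, 9.68 and 13.9 FPKM in DMSO and 5.16, 5.20 and 4.38 in CHIR99021, with every CHIR99021 library below every DMSO library (log2 change -1.13 ± 0.15 SE, limma adjusted p = 0.00228).

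Mafk had 18.5, 24.0 and 23.8 FPKM in DMSO and 12.4, 16.3 and 10.5 in CHIR99021 (-0.73 ± 0.17 SE, limma adjusted p = 0.0210). The call of Mafk was lost when DMSO replicate 2 (0.0529) or 3 (0.0761) or CHIR99021 replicate 1 (0.0554) or 3 (0.0772) was left out, and also with no filter on level (0.0506) and without replicate 1 of both groups (0.0513). The remaining small MAF gene, Mafg, named after its values were seen, had 9.92 to 13.9 FPKM in DMSO and 8.90 to 15.4 in CHIR99021 (limma, adjusted p = 0.831). Bach2, a B cell repressor that competes for the same kind of element, had 9.45, 9.56 and 8.30 FPKM in DMSO and 2.15, 1.61 and 1.29 in CHIR99021 (-1.92 ± 0.15 SE, limma adjusted p = 0.000479).

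Bach1, its relative that represses Hmox1 in many cells and is named after its values were seen, had 1.43 ± 0.0817 and 1.47 ± 0.408 FPKM. The highest genes of this group that did not pass were Sqstm1, which encodes the KEAP1-binding autophagy receptor p62 (127 ± 27.9 and 113 ± 16.1 FPKM), and Skp1a, a subunit of the ubiquitin ligase that uses beta-TrCP. Skp1a had 122 ± 16.0 and 145 ± 20.4 FPKM (limma, adjusted p = 0.240, or 0.0325 with the replicate block).

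Of 27 genes for glutathione synthesis, breakdown and use, 24 were tested, 1 rose and 1 fell, or 4 and 5 with the block. The group's median log2 change was 0.01. The gene that rose was Chac2, a cytosolic enzyme that degrades glutathione, with 1.89, 2.38 and 2.75 FPKM in DMSO and 4.87, 6.82 and 7.13 in CHIR99021 (2.68 times its DMSO mean, limma adjusted p = 0.00475). Chac2 held its call with any 1 library left out. The gene that fell was the glutathione transferase Gstt2 (95.4 ± 9.01 to 69.3 ± 4.38 FPKM, limma adjusted p = 0.0145), which was not called without DMSO replicate 3 (0.0523) or CHIR99021 replicate 3 (0.0703).

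The most abundant genes of the group were the glutathione peroxidases Gpx1 and Gpx4. Gpx1 had 655 ± 125 and 571 ± 42.5 FPKM (limma, adjusted p = 0.443, or 0.0455 without DMSO replicate 2). Gpx4, which protects membrane lipids, stood at 192 ± 38.2 and 167 ± 30.6 FPKM, with a limma adjusted p of 0.474 that became 0.0189 under the block. Some transferases and related genes, picked for this pattern after their values were seen, were highest in replicate 1 of both groups, as Nqo1 and Srxn1 were. Replicate 1 exceeded replicate 3 in DMSO and CHIR99021 by 7.17 and 2.70 times for Gstm1 and by 4.90 and 10.8 times for Gsta4. The same ratios were 4.75 and 3.72 for Mgst1 and 3.46 and 2.81 for Ephx1. They were 19.6 and 2.77 for Gpx8 and 6.84 and 2.30 for Me1. In CHIR99021 the ratios of Gstm1, Ephx1, Gpx8 and Me1 were thus under the 3 used above. Other transferases lacked the pattern, such as Gstp1, also named after its values were seen. It had 110, 106 and 113 FPKM in DMSO and 113, 107 and 117 in CHIR99021.

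Of 19 thioredoxin, peroxiredoxin and other peroxide and superoxide genes, 3 rose and 1 fell, or 4 and 1 with the block (median log2 change 0.08). Those that rose were Prdx6, Prdx3 and Txn2. Prdx6, a peroxiredoxin that is reduced with glutathione, had 35.0, 33.4 and 32.9 FPKM in DMSO and 50.9, 50.4 and 48.5 in CHIR99021 (log2 change 0.55 ± 0.07 SE, limma adjusted p = 0.00255). Prdx3, the mitochondrial peroxiredoxin, had 85.7, 79.6 and 87.2 FPKM and then 115, 114 and 131 (0.50 ± 0.09 SE, limma adjusted p = 0.00653).

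The groups were clearly separate for both peroxiredoxins, and both calls held with any 1 library left out. Txn2, the mitochondrial thioredoxin, rose from 82.6 ± 5.94 to 108 ± 2.47 FPKM (limma, adjusted p = 0.0155), which was lost without CHIR99021 replicate 2 (0.0561) or 3 (0.0612) and without replicate 1 of both groups (0.0804). The cytosolic counterparts did not pass: Txn1 had 342 ± 25.9 and 373 ± 26.0 FPKM (adjusted p = 0.406, or 0.0372 with quantile normalization) and Prdx1 368 ± 22.8 and 402 ± 10.5 (0.309).

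Sesn1, a stress-induced regulator of peroxide metabolism and of mTORC1, fell from 3.92 ± 0.417 to 2.23 ± 0.580 FPKM (limma, adjusted p = 0.0367). Its call was lost without DMSO replicate 1, 2 or 3 (0.0588, 0.0709 and 0.119), without CHIR99021 replicate 1 or 3 (0.102 and 0.132), with no filter on level (0.0829) and without replicate 1 of both groups (0.127).

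Of 12 genes for NADPH supply, 3 rose and 1 fell, or 6 and 2 with the block (median log2 change 0.18). NADPH is the reductant that Gsr and Txnrd1 use. Me2, mitochondrial malic enzyme, rose from 27.1 ± 1.01 to 36.5 ± 1.39 FPKM (limma, adjusted p = 0.00943). G6pdx, the entry enzyme of the pentose phosphate pathway, had 18.5, 19.4 and 21.3 FPKM in DMSO and 23.9, 26.7 and 26.6 in CHIR99021 (log2 change 0.37 ± 0.09 SE, limma adjusted p = 0.0299).

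Rpia, an isomerase of the same pathway, rose from 33.9 ± 2.76 to 47.5 ± 5.40 FPKM (limma, adjusted p = 0.0213). Idh1, cytosolic isocitrate dehydrogenase, fell from 7.73 ± 0.199 to 5.20 ± 0.0396 FPKM (limma, adjusted p = 0.0139). Each of these 4 calls was lost with some library left out, while the log2 change stayed between 0.33 and 0.42 for G6pdx, 0.41 and 0.57 for Rpia, -0.51 and -0.48 for Idh1 and 0.39 and 0.45 for Me2. G6pdx was not called without DMSO replicate 1 (0.0828) or 2 (0.0614) or CHIR99021 replicate 2 (0.0930) or 3 (0.117). Rpia was not called without DMSO replicate 1 (0.0601) or CHIR99021 replicate 2 (0.0693) or 3 (0.0921), Idh1 without DMSO replicate 3 (0.0556) or CHIR99021 replicate 3 (0.0575), and Me2 without CHIR99021 replicate 3 (0.0514). Without the libraries numbered 1 in both groups Me2, Idh1 and G6pdx had 0.0580, 0.0737 and 0.0838. Further along the pathway 2 abundant enzymes passed only with the block. The level of Taldo1 was 199.5 ± 17.4 FPKM in DMSO and 171 ± 12.2 in CHIR99021 (limma adjusted p of 0.148 unpaired and 0.0288 blocked), and that of Tkt 145 ± 9.22 and 163 ± 5.53 (0.193 and 0.0441).

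Of 18 genes for haem and iron handling and other NRF2 targets, 16 were tested, 3 fell and 0 rose, or 4 fell and 2 rose with the block (median log2 change 0.06). Both biliverdin reductases, which act after haem oxygenase, were among those that fell. Blvrb had 95.3, 62.2 and 92.2 FPKM in DMSO and 53.8, 35.0 and 39.2 in CHIR99021 (log2 change -0.95 ± 0.20 SE, limma adjusted p = 0.0157). That call was lost without DMSO replicate 3 (0.0608) or CHIR99021 replicate 3 (0.0670).

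Blvra fell from 23.9 ± 0.842 to 19.3 ± 0.443 FPKM (limma, adjusted p = 0.0395). Its call was lost without any 1 library, with adjusted p of 0.0759, 0.0860 and 0.0937 without DMSO replicates 1, 2 and 3 and 0.0823, 0.114 and 0.128 without CHIR99021 replicates 1, 2 and 3. It was also lost with upper-quartile scaling (0.169), quantile normalization (0.0830), no variance trend (0.0607) and without replicate 1 of both groups (0.116).

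Aldh3a2, a fatty aldehyde dehydrogenase, fell from 16.3 ± 1.40 to 12.2 ± 0.942 FPKM (limma, adjusted p = 0.0351). The call was lost when DMSO replicate 1 (0.0702) or 3 (0.118) or CHIR99021 replicate 1 (0.0801), 2 (0.0557) or 3 (0.134) was left out, with no filter on level (0.0550), upper-quartile scaling (0.0808) or quantile normalization (0.0565), and without replicate 1 of both groups (0.124). The ferritin chains, which store the iron that haem breakdown releases, were the most abundant genes of the group. Ftl1 had 1713 ± 553 and 1769.8 ± 341 FPKM and Fth1 939 ± 216 and 872 ± 104, with limma adjusted p of 0.859 and 0.765. Ferritin, peroxidase and thioredoxin genes have near-identical copies elsewhere in the genome, so their FPKM are less certain than those of the other genes.

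**Figure D5:**
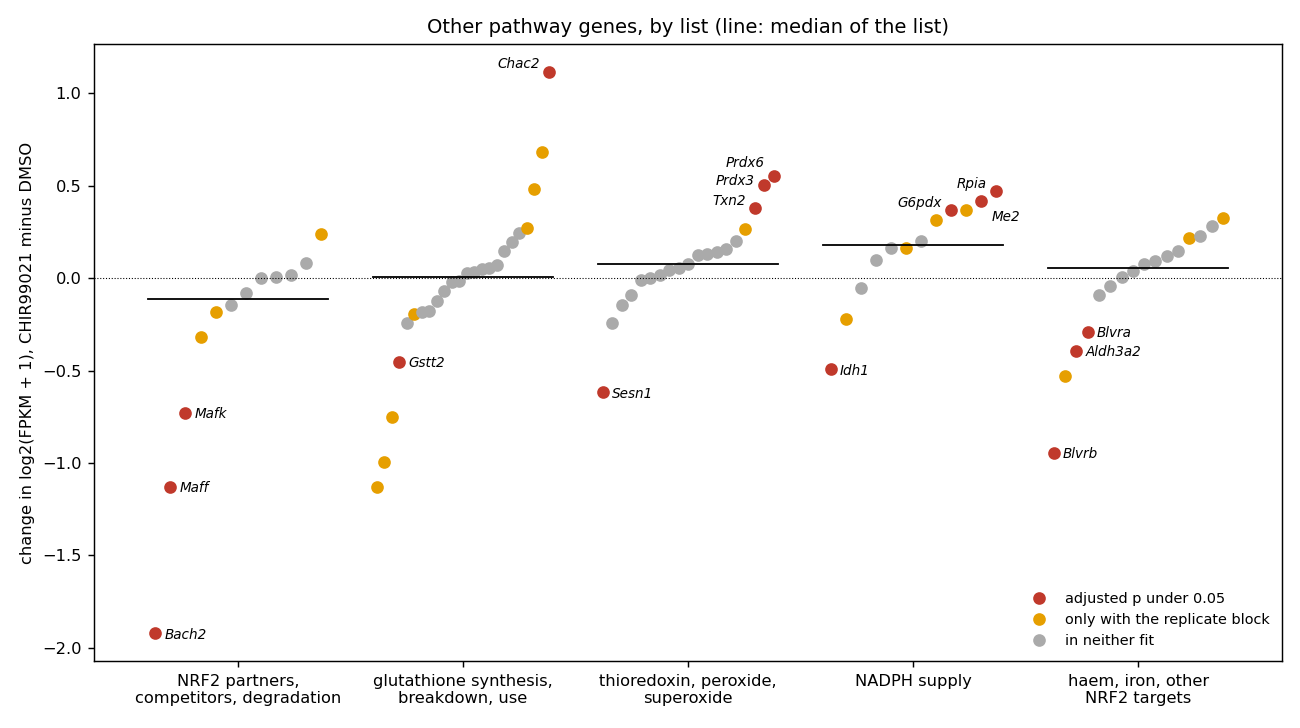
Change in log2(FPKM + 1), CHIR99021 minus DMSO, of the 83 tested pathway genes (vertical axis), in 5 groups along the horizontal axis and sorted within each, with a line at each group's median red and named where the limma adjusted p is under 0.05, orange where it is so only with the replicate block and grey otherwise. Medians lie between -0.11 and 0.18, with 3 genes lower and 0 higher in the first and last groups.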

How the data were processed

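Per the labels' protocols, RNA came from an RNeasy kit and poly(A) libraries from a TruSeq Stranded mRNA kit. The submitters' processing notes name the build mm10 and the tools Cufflinks 2.2.1, TopHat2 2.1.1 and cutadapt 1.12. The sources used here do not give the annotation, the strand setting or the handling of reads with several matches. The authors deposited 1 table of gene FPKM with confidence limits per library. FPKM are not counts, so depth is unknown and no count model was used. The summed FPKM was 527290 to 617449 per library, and for the median tested gene the authors' limits spanned ± 12.5% to ± 15.4%. At most 0.228% of tested values were identical between 2 libraries.

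Values were transformed to log2(FPKM + 1), which understates the change of low genes, and the 10096 entries with a mean of at least 1 FPKM were tested with limma 3.58.1 in R 4.3.3 (two-sided, variance trend, Benjamini-Hochberg over all tested genes, threshold 0.05). Every adjusted p is from this fit unless another setting is named. Folds are ratios of FPKM without the pseudocount, and ± after a level is the SD over 3 libraries. P-values measure the spread between these libraries. The fit was tested on simulated data that held no shared effect of replicate number, so that test does not cover such an effect. Both groups carry replicate numbers 1 to 3 in their titles. Deviations from the group mean correlated at 0.535, 0.490 and 0.517 for same-numbered libraries, so the fit with the replicate number as a block is given where it changes a call. The genes and lists were chosen with earlier results of these data known, and no list was tested as a set. All 10 genes are named. Of each pathway group up to 5 genes that passed and the 2 highest that did not are named, with exceptions marked in the text. From the marker lists, Itgam, Cd68, Cd14, Csf1r, Lyz2, S100a8, Cd3e, Lck, Prdm1, Irf4, Xbp1 and Igj are named. So are the germinal centre and feeder-like markers. Gene positions were read from the locus field of those tables and are counted from 1. Python 3.11.15, pandas 2.3.3, numpy 2.4.6, scipy 1.17.1 and matplotlib 3.10.9 were used.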

Additional observations from a re-analysis of the deposited data

How the results depend on the processing

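The 10 genes, 88 pathway genes and all genes were refitted under 15 alternatives, of which leaving out replicate 1 of both groups was chosen after seeing the data. The count of called genes among the 10 was 3, and it became 1 with no filter on level, 5 with upper-quartile scaling, 5 with quantile normalization and 6 with the replicate block. Leaving out 1 library gave 1 to 3 calls. Over all genes, 2164 were called, 4321 with the replicate block and 1181 without replicate 1 of both groups, and leaving out 1 library gave 1069 to 2038. Calls as higher numbered 821 of 10096 tested genes in the main fit and 627 of 16287 with no filter on level. They numbered 1198 of 10102 with upper-quartile scaling and 1235 of 10095 with quantile normalization. The median log2 change over all tested genes was -0.036 in the main fit, 0.036 with upper-quartile scaling and 0.029 with quantile normalization. Of the pathway genes 16 were called, 34 with the replicate block and 10 without replicate 1 of both groups, and 5 to 15 with 1 library left out. The share of all calls that were higher was 37.9%, and 54.9% with upper-quartile and 51.3% with quantile scaling.

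Gclc kept its direction and call under every alternative, and Hmox1, Gsr, Gclm, Txnrd1, Keap1 and Nfe2l2 kept their direction. Among the 10 genes and the pathway genes named by the rule, the directions that turned belonged to 5 genes that passed in none of the fits. Leaving out 1 library moved the log2 change of Nqo1 from -0.63 to 0.34, positive without DMSO replicate 1 (0.34) or CHIR99021 replicate 3 (0.089). It moved Srxn1 from -0.12 (without CHIR99021 replicate 1) to 0.64, Sqstm1 from -0.28 to 0.022 and Fth1 from -0.22 to 0.090 (both without DMSO replicate 1), and Ftl1 from -0.080 to 0.33, negative without DMSO replicate 2 or 3 or CHIR99021 replicate 1. Ftl1 was -0.037 with quantile normalization. The cause was not tested. The Gclm to Gclc difference ranged from -0.78 to -0.49 and the Nfe2l2 to Keap1 difference from 0.41 to 0.59. With libraries paired by replicate number, both differences had an exact sign-flip p of 0.25, the smallest 3 pairs allow. The depth of the libraries is unknown. For Slc7a11 the authors' lower confidence limit was 0 in 5 of 6 libraries, and for none of the other 9 genes was it 0 in any library.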
